A study of Mus musculus with 18 samples.

Results

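The genes described here encode the ligands, antagonists, receptors, SMAD proteins and direct regulators of transforming growth factor beta (TGF-beta), bone morphogenetic protein (BMP) and activin signalling. The 43 members were chosen by name, with earlier results of these data known, so their shares beside all genes are descriptive. Each was taken through a probe set that carries its symbol alone. All 43 were measured, among 18193 genes named by such probe sets. A total of 94 probe sets interrogated the members, with 1 probe set for 14 of them and several for 29, and each member is given by its probe set of highest mean signal over all arrays.

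Ligands of this family are secreted and bind pairs of type I and type II receptor kinases. The type I receptor phosphorylates a receptor SMAD (*Smad2* and *Smad3* after TGF-beta or activin, *Smad1*, *Smad5* and *Smad9* after BMP), which joins *Smad4* and acts on target genes in the nucleus. Latent TGF-beta binding proteins hold TGF-beta in the matrix, follistatin and noggin capture ligands outside the cell, and *Smad6*, *Smad7*, *Bambi* and the SMURF ubiquitin ligases restrain the signal. In liver, TGF-beta is known as a brake on hepatocyte growth and a driver of matrix deposition, and BMP ligands as regulators of iron handling.

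RNA was measured in a hepatoma line of mouse origin, Hepa-1c1c7 (the wild-type cells), and in *c*35 cells, a mutant derivative of that line whose aryl hydrocarbon receptor (AHR) carries a missense mutation and cannot bind DNA. Both lines received DMSO vehicle (cells called naive), the dioxin TCDD or the combustion product benzo[*a*]pyrene (BaP) for 8 hr, with 3 arrays of biological replicates in each of 6 groups. BaP was given at 5 µM and TCDD at 5 nM, although the labels of the wild-type TCDD arrays state no dose and the value in the study's methods was taken. Since *c*35 is a single derivative line, its *Ahr* mutation and any other difference from the parent line cannot be told apart.

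The values are log2 signals of Affymetrix arrays made by robust multiarray averaging (RMA), so a difference of 1 is a doubling of signal. Signals of different probe sets are not on a shared scale and no level of a gene is compared with that of another. The mean signals of *Bmp2*, *Tgfb2*, *Nog*, *Id4*, *Smad9*, *Ltbp1* and *Ltbp2* lay below the median of all probe sets, 5.66, and RMA gives no call of presence. A gene was called when its adjusted p from limma was below 0.05 and its change above 1.5-fold, and for ligands in *c*35 cells when its adjusted p was below 0.1. In RNA from whole cultures, fewer cells expressing a gene and less RNA per cell cannot be told apart.

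The ligand labels were borne out in wild-type cells, where *Cyp1a1*, an AHR target that metabolizes BaP, rose by 3.28 with TCDD and by 3.69 with BaP on the log2 scale. In *c*35 cells, 3 arrays stood apart from their groups, with *Cyp1a1* at 8.32 on DMSO 1, 8.34 on DMSO 2 and 8.32 on BaP 3 against 4.87 to 6.23 on the other *c*35 arrays. The lines also differed in the *Actb* 3′ minus 5′ signal, a measure of RNA integrity and labelling, which lay between 0.73 and 1.38 on the wild-type arrays and between 0.30 and 0.53 on the *c*35 arrays. Arrays correlated at 0.991 to 0.997 within wild-type cells, at 0.995 to 0.998 within *c*35 cells and at 0.969 to 0.980 between the lines. The hepatoma label was set against hepatocyte markers. Of 10 hepatocyte markers measured, 1 was called higher in wild-type cells and 1 lower. The higher was *Alb*, the serum albumin gene, with a mean of 13.64 in naive wild-type and 11.18 in naive *c*35 cells. The lower was *Fgb*, with means of 4.02 and 4.98, both below the median of all probe sets. Naive means of *Ahsg* (5.38 and 5.44) and *Apob* (5.49 and 5.44) also lay below it, and those of the other hepatocyte markers above it. Mean signals of the hepatocyte list lay between 7.48 and 7.76 on wild-type arrays and between 7.40 and 7.58 on *c*35 arrays. Of the markers of other cell types, 2 of 8 stellate and fibroblast genes were called higher and 2 lower, 3 of 6 macrophage genes lower, 2 of 4 cholangiocyte genes lower and 0 of 6 endothelial genes. Mean signals of the macrophage list lay between 6.83 and 7.08 on wild-type arrays and between 7.44 and 7.55 on *c*35 arrays, while its pan-leukocyte marker *Ptprc* had a mean of 2.93 in naive wild-type and 2.85 in naive *c*35 cells. The cholangiocyte list lay between 7.40 and 7.60 and between 8.22 and 8.42, the stellate list between 7.17 and 7.43 and between 7.33 and 7.49, and the endothelial list between 4.65 and 4.78 and between 4.78 and 4.94, in wild-type and *c*35 cells respectively. The part of these marker and RNA quality differences in the differences between lines was not tested. Fits with the *Actb* measure as a covariate are given below, but its ranges do not overlap between the lines.

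The first question was how the module differs between the lines when neither is exposed to a ligand. In naive cells, 12 of 43 members were called, 27.9%, against 14% of all genes (7.52% higher and 6.52% lower in wild-type cells). The pseudoreceptor *Bambi* was higher in wild-type cells by 2.71 on the log2 scale, against a *c*35 signal below the median of all probe sets, and the activin receptor *Acvr2a*, the nuclear repressor *Skil*, *Tgfb3*, *Id2*, *Bmpr2* and *Acvr1b* were also higher. Lower in wild-type cells were the activin antagonist *Fst* (3.73-fold), *Bmp4* (3.17-fold), *Ltbp4* (3.05-fold), *Tgif1* and *Smad6*. A ligand gene and an inhibitor gene were found both among the 7 that were higher and among the 5 that were lower. On their brightest probe sets the receptor genes called, the pseudoreceptor *Bambi* among them, were all higher. A dimmer *Tgfbr2* probe set was called lower. The median difference over the 43 members was 0.01, with a median absolute difference of 0.27 against 0.18 over all genes. When the fit included that *Actb* measure as a covariate, 13 members were called, these 12 and *Tgfb1*. The measure does not overlap between the lines, so a covariate fit cannot tell it apart from the line. Leaving out the 3 *c*35 arrays of high *Cyp1a1* leaves only DMSO 3 in the naive *c*35 group, and no count is given. Higher signals on all wild-type arrays than on any *c*35 array were seen for 14 members, and lower signals for 14, against 22.6% and 24.8% of all genes.

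**Figure D1:**
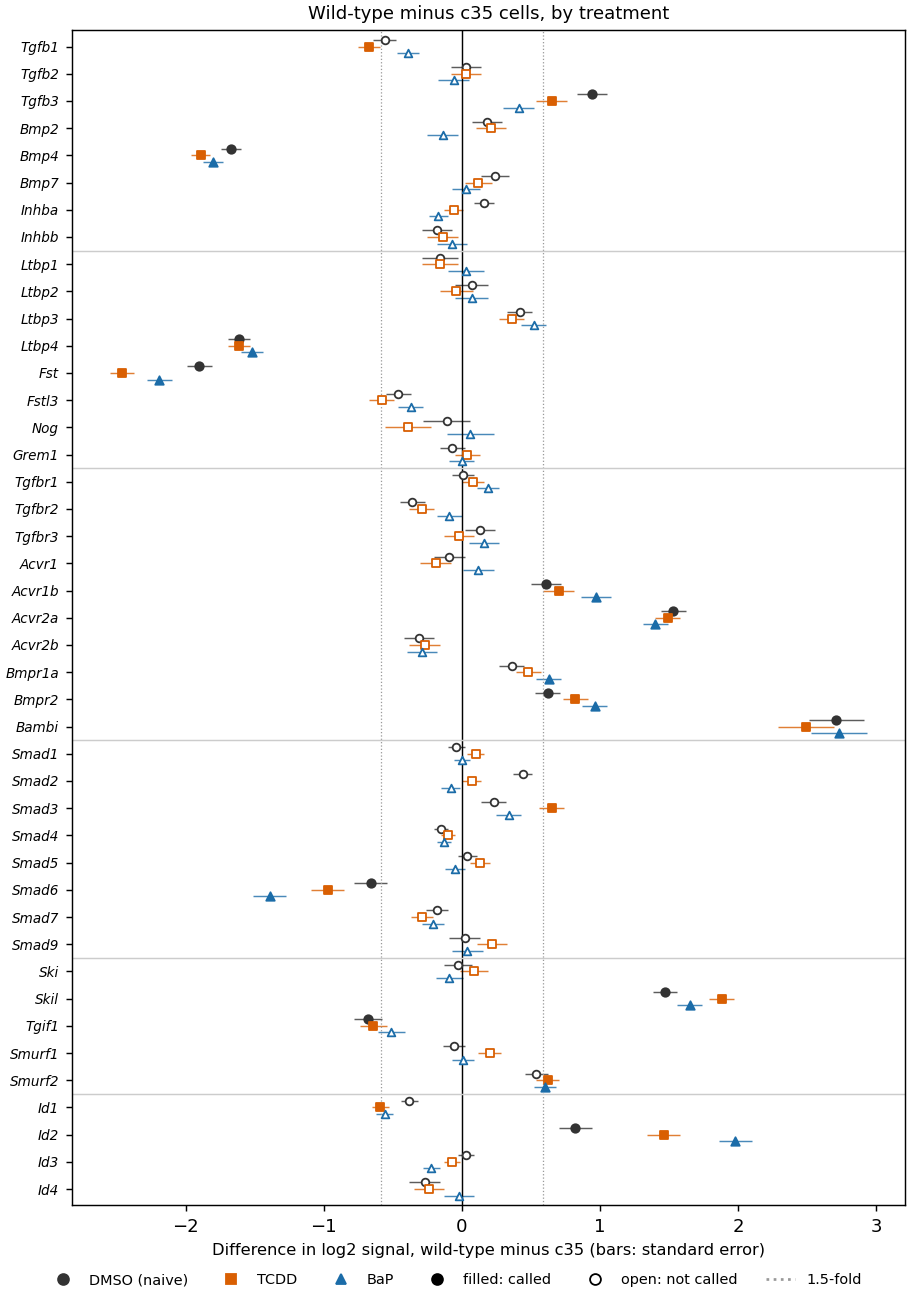
Difference in log2 signal between wild-type and *c*35 cells for each of the 43 members, grouped by role, with separate symbols for naive, TCDD-treated and BaP-treated cells, filled where called, standard errors as bars and dotted lines at 1.5-fold. *Bambi* lies farthest to the right and *Fst*, *Bmp4* and *Ltbp4* farthest to the left, on the same side with each treatment.

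Among the 8 ligand genes, *Bmp4*, a BMP ligand of the developing liver and other organs, and *Tgfb3* were called, in opposite directions. *Bmp4* read 9.63, 9.71 and 9.77 on the naive wild-type arrays and 11.40, 11.34 and 11.37 on the naive *c*35 arrays, a difference of -1.67 (SE 0.07, adjusted p = 2.81e-13). The groups were far apart, and all 18 arrays kept the order, with no wild-type array above 9.77 and no *c*35 array below 11.34. *Tgfb3* read 8.47, 8.29 and 8.34 against 7.45, 7.32 and 7.53, a difference of 0.94 (SE 0.11, adjusted p = 6.47e-07). *Tgfb1*, the most studied member of the family, was lower in wild-type cells by an adjusted p of 4.1e-06 but its difference of -0.56 fell short of the minimum change. The activin and inhibin subunit genes *Inhba* and *Inhbb*, *Bmp2*, *Bmp7* and *Tgfb2* were not called.

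Of the 8 genes for latency proteins and extracellular antagonists, *Fst* and *Ltbp4* were lower in wild-type cells and none was higher. *Fst* encodes follistatin, which binds activin and keeps it from its receptors. Its signals were 11.12, 10.82 and 11.06 on the naive wild-type arrays and 12.90, 12.91 and 12.89 on the naive *c*35 arrays, a difference of -1.90 (SE 0.09, adjusted p = 1.42e-12). The *c*35 arrays were almost level with each other and above every wild-type array, and the second *Fst* probe set gave -1.07. *Ltbp4*, a latent TGF-beta binding protein, read 6.80, 6.56 and 6.71 against 8.44, 8.23 and 8.21, a difference of -1.61 (SE 0.08, adjusted p = 7.09e-12). The follistatin relative *Fstl3* (-0.46) and *Ltbp3* (0.42) had adjusted p-values below 0.05 but smaller changes than the minimum, and the BMP antagonists *Nog* and *Grem1* were not called.

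On their brightest probe sets, 4 of 10 receptor genes were called higher in wild-type cells and none lower. *Bambi* is built like a type I receptor without its kinase and blunts TGF-beta and BMP signals. It read 7.52, 7.68 and 7.55 on the naive wild-type arrays and 4.42, 4.70 and 5.51 on the naive *c*35 arrays, a difference of 2.71 (95% interval 2.30 to 3.11, adjusted p = 8.08e-10). The *c*35 signals lay below the median of all probe sets and were the more scattered, yet their highest stayed under the lowest wild-type signal. *Acvr2a*, a type II receptor for activins, read 8.65, 8.50 and 8.50 against 7.12, 7.07 and 6.85, a difference of 1.53 (SE 0.09, adjusted p = 6.76e-11), although its second probe set gave 0.35 and was not called. *Bmpr2*, a type II BMP receptor, read 10.94, 10.93 and 10.95 against 10.41, 10.36 and 10.20, a difference of 0.62 (SE 0.09, adjusted p = 8.77e-06), with 0.39 and 0.17 on its other probe sets. *Acvr1b*, a type I activin receptor, read 8.00, 8.12 and 8.05 against 7.61, 7.61 and 7.13, a difference of 0.61 (SE 0.11, adjusted p = 0.000139), and its other probe set gave -0.05. Both of the last genes sit just above the minimum change, and without *c*35 DMSO 3 the difference was 0.45 for *Acvr1b* and 0.56 for *Bmpr2* and neither was called. *Tgfbr1*, *Tgfbr2*, *Tgfbr3*, *Acvr1*, *Acvr2b* and *Bmpr1a* were not called on their brightest probe sets. A dimmer *Tgfbr2* probe set, for the type II TGF-beta receptor, gave -0.94 and was called.

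Of the 8 SMAD genes only *Smad6* was called, lower in wild-type cells. *Smad6* encodes an inhibitory SMAD that acts mainly on BMP signals. Its naive signals were 6.06, 5.95 and 6.20 in wild-type and 6.78, 6.64 and 6.77 in *c*35 cells, a difference of -0.66 (SE 0.12, adjusted p = 0.000139). *Smad2* (0.44), *Smad3* (0.23) and *Smad4* (-0.15) differed at an adjusted p below 0.05 by less than the minimum change. Other probe sets of *Smad2* and *Smad1* gave 1.26 and -0.73 and were called, so these genes depend on the probe set read.

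Of the nuclear repressors and ubiquitin ligases, *Skil* was higher and *Tgif1* lower in wild-type cells. *Skil* encodes SnoN, a repressor that binds SMAD complexes. It read 9.63, 9.76 and 9.77 on the naive wild-type arrays and 8.37, 8.17 and 8.20 on the naive *c*35 arrays, a difference of 1.47 (SE 0.09, adjusted p = 5.26e-11), while a second, dim probe set gave -0.10. *Tgif1*, a homeodomain repressor of SMAD2 and SMAD3, read 8.67, 8.45 and 8.51 against 9.23, 9.26 and 9.18, a difference of -0.68 (SE 0.10, adjusted p = 6.94e-06). The arrays of the lines did not overlap for either gene. *Smurf2*, which marks receptors and SMADs for degradation, gave 0.54 and *Ski* and *Smurf1* were not called.

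The ID genes encode helix-loop-helix proteins without a DNA binding region and are classic targets of BMP signals. Only *Id2* was called, higher in wild-type cells by 0.82 (SE 0.12, adjusted p = 1.11e-05), and its other probe sets gave 1.14 and 1.02. *Id1* differed by -0.38, the opposite way and below the minimum change, and *Id3* and *Id4* were not called.

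**Figure D2:**
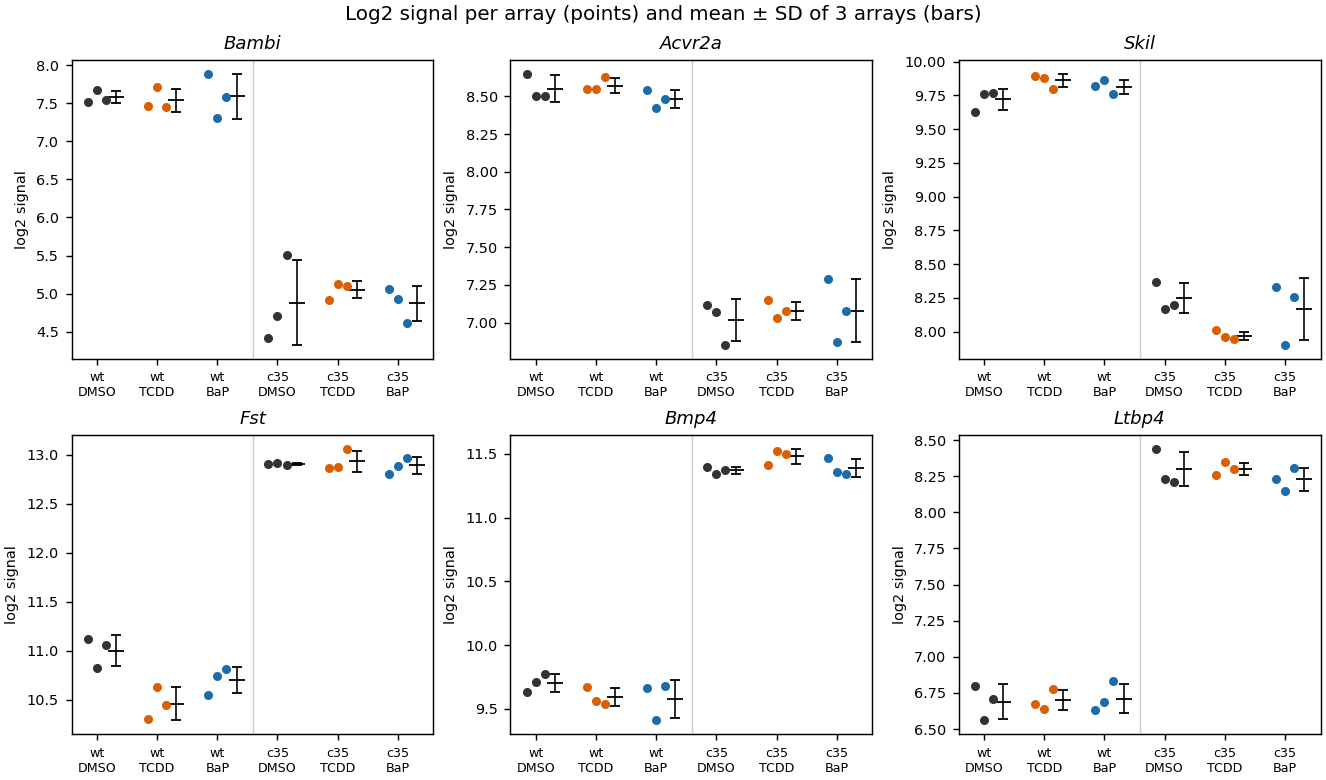
Log2 signal on each of the 18 arrays (points) for the 6 members of widest naive difference, by line and treatment, with the mean and SD of 3 arrays as bars. For *Bambi*, *Fst*, *Bmp4*, *Ltbp4*, *Acvr2a* and *Skil*, no wild-type point reaches a *c*35 point under DMSO, TCDD or BaP.

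The same question was then asked of cells given a ligand, whose group means come from other arrays than the naive means. All arrays entered the same fit, so the comparisons share the estimate of spread of each probe set. The ligand arrays are also further cultures of the same lines, so calls in several comparisons are not independent of each other. With TCDD, 16 of 43 members were called, 9 higher and 7 lower in wild-type cells (37.2%, against 15% of all genes, 8.65% higher and 6.32% lower). With BaP 12 were called, 8 higher and 4 lower (27.9%, against 15.8% of all genes, 8.98% higher and 6.83% lower). With the *Actb* covariate 13 were called with TCDD, *Smad3*, *Smurf2* and *Tgfb3* being lost, and 12 with BaP, *Smurf2* being lost and *Id1* gained. Called in all 3 comparisons were 10 of 43 members (23.3%), against 1910 of 18193 genes (10.5%), with 6 members and 1059 genes higher in all 3 and 4 members and 849 genes lower in all 3. The members were *Bambi* (2.49 to 2.73), *Skil* (1.47 to 1.88), *Acvr2a* (1.40 to 1.53), *Id2* (0.82 to 1.98), *Bmpr2* (0.62 to 0.96) and *Acvr1b* (0.61 to 0.97) on the side of wild-type cells, and *Fst* (-2.46 to -1.90), *Bmp4* (-1.89 to -1.67), *Ltbp4* (-1.61 to -1.52) and *Smad6* (-1.39 to -0.66) on the side of *c*35 cells. A further 7 members were called in 1 or 2 comparisons, namely *Tgfb3*, *Tgif1*, *Smurf2*, *Tgfb1*, *Smad3*, *Id1* and *Bmpr1a*. With the probe sets of a gene averaged, *Smad3* (0.01 with TCDD), *Smurf2* (0.12 with TCDD and 0.11 with BaP), *Bmpr1a* (0.22 with BaP) and *Tgfb1* (-0.38 with TCDD) were no longer called. Of the 10 called in all 3 comparisons, *Acvr1b* was then lost in each (0.28 naive, 0.32 with TCDD and 0.49 with BaP). *Bmpr2* was lost in naive cells (0.40) and with TCDD (0.47). On their brightest probe sets the other 26 were called in none, with naive differences between -0.46 and 0.44. Dimmer probe sets of *Smad2* (higher in wild-type cells) and *Tgfbr2* (lower) were called in all 3 comparisons. Dimmer ones of *Acvr1* and *Bmp7* were called lower with TCDD and with BaP. That of *Smad1* was called lower in naive and BaP-treated cells, and another of its probe sets higher with TCDD.

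The next question was which members a ligand of AHR changed in wild-type cells within 8 hr. TCDD changed 1 of 43 members, *Id2* (2.33%, against 0.379% of all genes), and BaP changed 3, raising *Id2* and lowering *Smad6* and *Tgfb3* (6.98%, against 1.32% of all genes, 0.885% higher and 0.434% lower). At an unadjusted p below 0.05 there were 9 members with TCDD and 11 with BaP, when 14.3% and 19.2% of all genes were below it. Both comparisons rest on the same 3 DMSO arrays. The members not called gave differences between -0.54 and 0.27 with TCDD and between -0.54 and 0.33 with BaP.

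*Id2* rose with both ligands. Its signals were 8.83, 9.27 and 9.37 on the DMSO arrays, 9.71, 9.84 and 9.97 with TCDD and 10.18, 10.27 and 10.51 with BaP. The 3 groups did not overlap, and the lowest of the 9 signals was that of DMSO 1. The rise was 0.68 with TCDD (95% interval 0.44 to 0.93, adjusted p = 0.0053) and 1.16 with BaP (0.92 to 1.41, adjusted p = 3.67e-06), that is 1.61-fold and 2.24-fold. Of its 3 probe sets, all were called with BaP (1.16, 1.21 and 1.56) and 2 with TCDD (0.68 and 0.77, with 0.60 on the other). Without DMSO 1 the rise with TCDD was 0.52 and was not called, and with only the arrays of the groups compared its adjusted p was 0.157.

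*Smad6* fell with BaP. On the arrays of wild-type cells it read 6.06, 5.95 and 6.20 with DMSO, 6.07, 5.89 and 5.74 with TCDD and 5.42, 5.07 and 5.48 with BaP. All BaP signals lay below all others, and the TCDD and DMSO signals overlapped. The difference with BaP was -0.75 (95% interval -0.99 to -0.50, adjusted p = 0.000517), and that with TCDD was -0.17 (adjusted p = 0.619).

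*Tgfb3* fell with BaP by 0.65 (95% interval of the difference -0.87 to -0.42, adjusted p = 0.000883). It read 8.47, 8.29 and 8.34 with DMSO, 8.01, 8.07 and 8.03 with TCDD and 7.85, 7.57 and 7.76 with BaP, with TCDD between the other groups and no overlap. The TCDD difference was -0.33 and did not pass (adjusted p = 0.193). Without wild-type BaP 2, the lowest array, the BaP difference was -0.57 and missed the minimum change.

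Other members differed at an adjusted p below 0.05 by less than 1.5-fold. *Fst* read 11.12, 10.82 and 11.06 with DMSO, 10.30, 10.63 and 10.45 with TCDD and 10.55, 10.74 and 10.81 with BaP, and all TCDD signals lay below all DMSO signals. The TCDD difference was -0.54 (adjusted p = 0.00392), and BaP gave -0.30 (adjusted p = 0.0604). Its second probe set gave -0.48 with TCDD (adjusted p = 0.00133). *Smad2*, the receptor SMAD of TGF-beta and activin, read 10.72, 10.56 and 10.66 with DMSO, 10.25, 10.30 and 10.39 with TCDD and 10.10, 10.14 and 10.09 with BaP, with no overlap between groups. Its differences were -0.33 with TCDD (adjusted p = 0.0358) and -0.54 with BaP (adjusted p = 0.000106), against 0.04 and -0.01 in *c*35 cells, and *Inhba*, which encodes the activin A subunit, gave -0.36 with BaP (adjusted p = 0.00476).

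**Figure D3:**
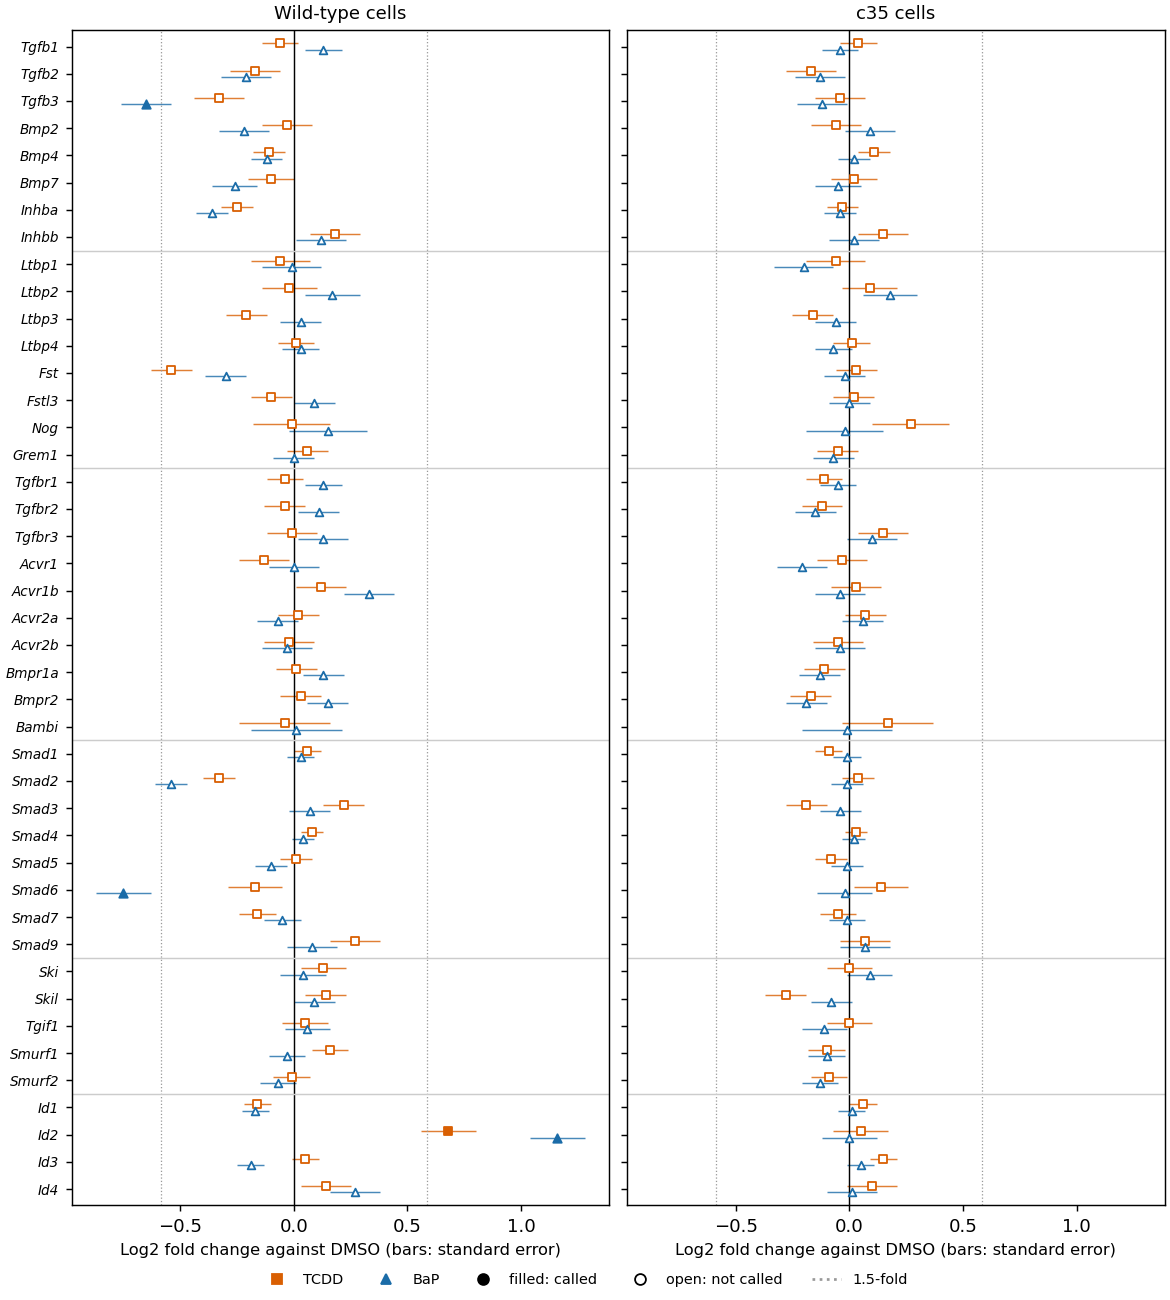
Difference in log2 signal between ligand and DMSO for each of the 43 members, in wild-type and in *c*35 cells, with standard errors as bars, filled symbols where called and dotted lines at 1.5-fold. The wild-type points of *Id2* lie to the right with both ligands, those of *Smad6* and *Tgfb3* to the left with BaP, and the *c*35 points gather around 0.

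The ligands were compared with each other at 5 nM TCDD and 5 µM BaP, doses that differ, and no member was called (0 of 43 by limma, against 0.258% of genes, with 10 members and 15.9% of all genes at an unadjusted p below 0.05). TCDD is a chlorinated dioxin and BaP a polycyclic aromatic hydrocarbon without chlorine. *Id2* was lower with TCDD than with BaP by 0.48 (95% interval of the difference -0.73 to -0.23, adjusted p = 0.0512), and 1 of its dimmer probe sets gave -0.96 and was called (adjusted p = 0.00172). For *Smad6* the difference was 0.58 (0.33 to 0.83), which passed the test (adjusted p = 0.0177) and fell just under the minimum change.

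In *c*35 cells neither ligand changed a member at the looser threshold. By limma 0 of 43 were called with TCDD (lowest adjusted p = 0.962, 3 members and 5.16% of genes at an unadjusted p below 0.05) and 0 with BaP (lowest adjusted p = 1, 1 member and 3.53% of genes at an unadjusted p below 0.05), against 0% of all genes in both. Differences lay between -0.28 and 0.27 with TCDD and between -0.21 and 0.18 with BaP. *Id2* read 8.26, 8.27 and 8.48 with DMSO, 8.26, 8.48 and 8.41 with TCDD and 8.42, 8.22 and 8.37 with BaP, and the 3 groups overlapped. *Smad6* read 6.78, 6.64 and 6.77, then 6.72, 6.86 and 7.03, then 6.79, 6.55 and 6.78, again with overlap. *Tgfb3* was at 7.45, 7.32 and 7.53 with DMSO, 7.19, 7.40 and 7.57 with TCDD and 7.55, 7.28 and 7.12 with BaP.

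Whether the response itself differed between the lines was tested by the response in wild-type minus that in *c*35 cells. For BaP, 2 of 43 members were called, against 1.34% of all genes. The *Id2* response was greater in wild-type cells by 1.16 (95% interval 0.81 to 1.51, adjusted p = 0.000545), on all 3 of its probe sets, and the *Smad6* responses differed by -0.72 (-1.07 to -0.37, adjusted p = 0.0299). Without the 3 *c*35 arrays of high *Cyp1a1*, which leaves only DMSO 3 in the naive *c*35 group, the *Smad6* difference was -0.65. No call is read from that fit. With only the arrays of the groups compared, the *Smad6* call was lost (adjusted p = 0.0534 by limma). *Smad6* was not called (adjusted p = 0.0629 to 0.0991 by limma) when *c*35 DMSO 1, DMSO 2, BaP 1 or BaP 3 or wild-type DMSO 3 or BaP 2 was left out. *Smad2* passed the test with a difference of -0.53 (adjusted p = 0.00935) and fell short only of the minimum change, with -0.48 on its second probe set. For *Tgfb3* the difference of -0.53 missed the threshold (adjusted p = 0.0986). For TCDD 0 of 43 were called by limma, against 0.28% of genes, with 9 members and 7.9% of genes at an unadjusted p below 0.05. The difference for *Id2* was 0.64 (0.29 to 0.99, adjusted p = 0.196) and that for *Fst* -0.56 (adjusted p = 0.086).

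**Figure D4:**
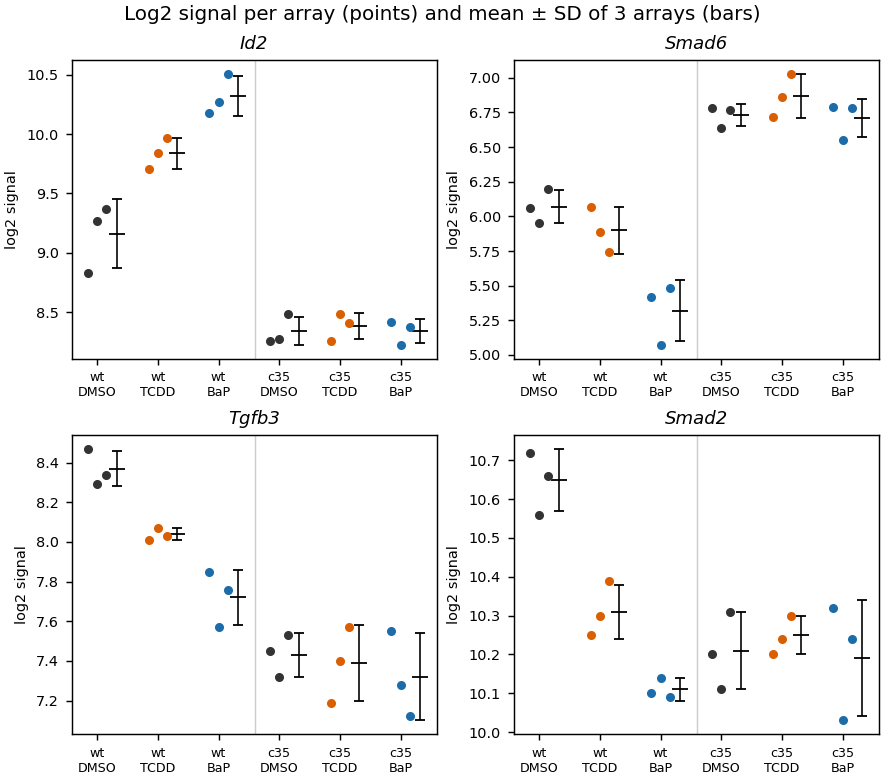
Log2 signal on each array (points) for *Id2*, *Smad6*, *Tgfb3* and *Smad2*, by line and treatment, with the mean and SD of 3 arrays as bars. *Id2* climbs from DMSO to TCDD to BaP in wild-type cells and stays between 8.22 and 8.48 in *c*35 cells, and *Smad6* is lowest on the 3 wild-type BaP arrays.

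Upstream sequence of the members with a different BaP response is shown because AHR binds DNA as a dimer with ARNT at a GCGTG core. RefSeq (GRCm38.p6) gave upstream sequence for 31 of the 43 members. The 250 bases before the start of *Id2*, on the minus strand at chr12:25096093-25096342, hold no GCGTG on either strand and 1 GGCGCC, a GC-rich element bound by SMAD1 and SMAD5, which is in capitals and begins 231 bases before the start. Those of *Smad6*, on the minus strand at chr9:64022060-64022309, hold 1 GCGTG, in capitals, which begins 249 bases before the start.
Id2: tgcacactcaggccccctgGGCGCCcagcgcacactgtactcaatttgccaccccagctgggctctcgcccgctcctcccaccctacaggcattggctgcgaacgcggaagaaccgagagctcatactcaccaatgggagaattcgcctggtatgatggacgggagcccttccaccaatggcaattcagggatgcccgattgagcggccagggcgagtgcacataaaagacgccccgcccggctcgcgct
Smad6: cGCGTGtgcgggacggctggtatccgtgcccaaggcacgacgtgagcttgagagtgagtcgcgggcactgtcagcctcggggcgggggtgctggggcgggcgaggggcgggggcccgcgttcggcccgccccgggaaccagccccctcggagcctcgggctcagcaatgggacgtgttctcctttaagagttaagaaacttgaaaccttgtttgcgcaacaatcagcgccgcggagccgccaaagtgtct
Over both strands, GCGTG occurred in 21 of 41 member promoters (51.2%) and in 28.2% of 32851 promoters of the same length, and GGCGCC in 12 of 41 (29.3%) and in 9.59%. The motifs can overlap, which they did in 34 promoters of the table. Member promoters had a median GC content of 66.8% against 52.4% for all, and both motifs are rich in G and C. These matches describe letters in a window and no binding was measured on these arrays.

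Beyond the module, 85 other genes of the pathway were measured, and 15 were called between the naive lines (17.6%, against 14% of all genes), 4 higher and 11 lower in wild-type cells. The widest difference was that of *Amhr2*, the type II receptor for anti-Mullerian hormone, 8.03-fold lower in wild-type cells, with means of 5.76 and 8.76 (adjusted p = 4.4e-16). Of 16 TGF-beta responsive genes, *Fn1* (1.15), which encodes fibronectin, and *Thbs1* (0.82), an activator of latent TGF-beta, were higher, and *Acta2* (-2.15), *Junb* (-1.65), *Pdgfb* (-1.12), *Ccn2* (-0.96) and *Timp1* (-0.67) were lower, with a list median of -0.08. None of 7 BMP responsive genes and none of 19 other ligand genes was called. Among 15 extracellular regulators, *Fstl1* (0.85) and *Bmper* (0.79) were higher and the BMP antagonist *Chrd* (-0.86) lower, and among 18 intracellular regulators the kinase gene *Map3k7* (-0.91) and *Wwp1*, *Nedd4l* and *Fkbp1a* were lower. All 4 of these calls depended on the probe set, since with the probe sets of a gene averaged the differences were -0.33 for *Map3k7*, -0.18 for *Wwp1*, -0.18 for *Nedd4l* and -0.02 for *Fkbp1a*, and *Thbs1* was lost likewise at 0.43. The calls of *Fkbp1a* (-0.34), *Fstl1* (0.64, adjusted p = 0.063 by limma) and *Timp1* (-0.29) were lost with the *Actb* covariate. Those of *Fkbp1a* (-0.45) and *Timp1* (-0.47) were lost without wild-type DMSO 1, and that of *Fkbp1a* (-0.55) without *c*35 DMSO 3. Without the 3 *c*35 arrays of high *Cyp1a1*, only DMSO 3 is left in the naive *c*35 group. The differences were then 0.61 for *Bmper*, and -0.55 for *Timp1* and -0.45 for *Nedd4l*, below the minimum change. No call is read from that fit, for *Bmper* or any other gene. With TCDD, 1 of the 85 was called in wild-type cells (against 0.379% of all genes), *Htra1*, a secreted serine protease, which rose by 0.67 (adjusted p = 0.00292) from 6.88, 7.13 and 6.90 to 7.51, 7.81 and 7.61. This call was lost with only the arrays of the groups compared. With BaP 0 of the 85 were called by limma (against 1.32%), with 14 of them and 19.2% of all genes at an unadjusted p below 0.05.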

How the data were processed

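Per the labels and the paper's methods, RNA of 6 groups of 3 arrays was hybridized to Affymetrix mouse arrays. The authors deposited log2 signals made by RMA (its version was not given in the sources used here), and these were used without further normalization. Background correction and quantile scaling in RMA compress low signals, and the number of arrays limits precision. Of 45101 probe sets, 64 controls were left out. Of the 45037 tested, 34945 had 1 symbol in the platform annotation, 932 several and 9160 none, and only the first kind named genes.

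With limma 3.58.1 under R 4.3.3, all 18 arrays entered 1 fit with a mean per group (eBayes with an intensity trend) and Benjamini-Hochberg adjustment over 45037 probe sets in each of 10 comparisons. The fit was tested on simulated data. No arrays held identical values. Values on every array were given for members called between the naive lines (up to 14), with a ligand or in a response difference. For the other lists up to 5 called genes each were named, except that all 7 called TGF-beta responsive genes were. Signals on single arrays were given for *Htra1* only. The members and lists were chosen with earlier results of these data known. *Fst* values with ligands and the signals behind *Htra1* were chosen after seeing them. *Smad2* values with ligands were also given, outside the rule for values on every array.

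Promoter sequences are from RefSeq (GRCm38.p6), and the 250 bases before each start were searched for GCGTG and GGCGCC. Alternatives were array weights, no intensity trend, quantile normalization, median centring, each gene's probe sets averaged, no dim probe sets, no minimum change, only the arrays compared, the replicate number as a block, the *Actb* covariate and leaving out each array. Leaving out the 3 *c*35 arrays of high *Cyp1a1* was added after seeing the data. Figures were drawn with matplotlib 3.10.9.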

Additional observations from a re-analysis of the deposited data

Results flagged for a closer look

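The test of the difference in response between the lines singled out *Id2* and *Smad6* among the 43 members, both with BaP. In wild-type cells the *Id2* response exceeded that of the mutant line by 1.16 on the log2 scale (adjusted p = 0.000545 from limma), and the *Smad6* responses differed by -0.72 (adjusted p = 0.0299 from limma). The *Smad6* difference was called without 6 of the 12 arrays in turn and not without the other 6. It was also not called with only the arrays of the groups compared (adjusted p = 0.0534 by limma).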

How the results depend on the processing

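Of the recomputed counts of called genes, 198 stayed within 1.5 times the first value and 29 did not. Between the naive lines, 11 to 12 members were called when 1 array was left out, 23 with no minimum change, and for the other pathway genes 14 to 16 and 28. With BaP-treated lines 22 members were called with no minimum change. For TCDD in wild-type cells the member count was 0 with array weights, 0 with only the arrays compared, 3 with no minimum change (adding *Fst* and *Smad2*) and 0 to 2 without 1 array, and *Fst* was added without wild-type DMSO 2 or TCDD 2. The other pathway genes numbered 2 with no minimum change and 0 with only the arrays compared. For BaP 5 members and 6 other genes were called with no minimum change, and 2 to 3 members without 1 array. TCDD against BaP gave 1 with probe sets averaged per gene (*Id2*), 1 with no minimum change (*Smad6*) and 0 to 1 without 1 array (*Smad6*, without wild-type BaP 1, BaP 3 or TCDD 3). For the TCDD response difference the count was 1 with probe sets averaged per gene and 1 with the *Actb* covariate, *Id2* in each, and 0 to 1 without 1 array (*Fst*, without wild-type DMSO 2 or TCDD 2). For the BaP response difference it was 1 with only the arrays compared, *Smad6* being lost. The count was 1 to 3 without 1 array, with *Smad2* (without *c*35 BaP 2) or *Tgfb3* (without *c*35 BaP 3) added. In *c*35 cells it stayed at 0. The cause of these changes was not tested.

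Of the naive calls, *Acvr1b* and *Bmpr2* were lost with probe sets averaged per gene (0.28 and 0.40), and *Acvr1b* also with array weights, with median centring and without wild-type DMSO 2. The other 10 were called in every alternative that kept more than 1 array in each group. Dropping the minimum change could not lose a call. Averaging leaves the signal of a member with 1 probe set unchanged, as for *Bambi*, *Bmp4*, *Ltbp4*, *Smad6*, *Tgfb3* and *Tgif1*. *Wwp1* with TCDD turned to 0.04 between the lines with probe sets averaged per gene. The replicate block left the members called at 12 between the naive lines, 1 for TCDD and 3 for BaP and changed no other count. Arrays of the same number were paired in 45 ways, of which 8 had a correlation of deviations over 0.1. The median was 0.0199, against -0.0173 for arrays of different number. The labels do not say whether the numbers pair the arrays.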
